A study of Drosophila melanogaster with 3 samples.

Results

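The proneural genes achaete (ac), scute (sc), lethal of scute (l(1)sc) and asense (ase), together with daughterless (da) and extramacrochaetae (emc), form a set of 6 genes among 18164 annotated genes. They were examined in a ChIP-seq series on the transcription factor Hey. The samples were whole embryos of both sexes, aged 6 to 24 h by their source name (the separate age field holds a number of hours too large for an embryo), from 1 transgenic line (labelled strain Hey) in which Hey carries GFP at its C terminus. The series holds 1 group with 3 biological replicates and no second genotype, stage or treatment, so the comparisons are between genes, between lists and between replicates. The labels name no driver or allele for the transgene, and no cell type was separated, so that every embryo cell with tagged Hey contributed. Regions came from 3 replicate lists and a pooled list of 30000 regions each, and from a list of 3319 regions kept by the authors after an irreproducible discovery rate (IDR) cutoff. A region was given to a gene when its summit, the base the authors mark as its highest point, lay inside the gene or within 10 kb of either end. By this rule the 6 genes held 1 IDR region, 26 pooled regions, and 16, 36 and 32 regions of replicates 1, 2 and 3. A region in the overlap of 2 windows was counted once in these sums.

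The libraries' free-text field named them as input controls, while the assay title and the antibody label named a transcription factor ChIP, and they are treated here as the latter. Read depth was unknown from the lists. Regions were ranked within each list by the caller's signal value, with rank 1 the highest. Since each replicate and pooled list was filled to the same length, regions of weak evidence are present in all of them. The share with a q-value under 0.05 was 51.0%, 14.7% and 26.9% of the regions of replicates 1, 2 and 3, and 32.0% of the pooled regions. In whole embryos, weak binding in many cells and strong binding in few cells cannot be told apart.

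Proneural proteins are basic helix-loop-helix (bHLH) activators that give ectodermal cells the competence to become neural precursors. The products of ac, sc, l(1)sc and ase act as dimers with Da, the ubiquitous E protein of the fly, on E-boxes. Emc, which lacks a basic region, binds these proteins and keeps them from DNA. Notch signalling shuts proneural expression off in the neighbours of a chosen precursor through Hairy and Enhancer of split related repressors, the class to which Hey belongs. Members of this class bind the palindromic E-box CACGTG and the class C site CACGCG, and a class C site upstream of ac is the textbook target of Hairy.

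The sites that the results turn on are shown with the 6-base core in capitals. All are plus-strand sequences of the release 6 genome (dm6 coordinates), and coordinates are 1-based. The first is the CACGTG under the highest summit of the achaete-scute complex, at X:411346-411351, 1627 bp downstream of the l(1)sc start site. Next are 2 CACGTG cores beside summits at emc, at 3L:742563-742568 and 3L:753816-753821. The last 2 are the CACGCG cores nearest to the start sites of ac (X:369728-369733, 301 bp upstream) and ase (X:460786-460791, 41 bp downstream, in the 5' UTR), which had no summit close by.

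l(1)sc +1627: actcgcacaatcCACGTGgctggcgcacac
emc -6835: ggaaattctgcaCACGTGtcgatcgttcaa
emc +4418: actcgacctgcaCACGTGtgcgaattgcgg
ac -301: gttggcagccggCACGCGacagggccaggt
ase +41: ggagtttaggggCACGCGacacagagcgcc

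Within 10 kb, only emc held an IDR region, 1 of 6 genes, whereas 43.3% of all annotated genes and 44.6% of protein-coding genes did so by the same rule. This contrast depends on the 10 kb limit. With a limit of 2 kb, or with each region assigned to its nearest start site alone, the 6 genes still had 1 gene with an IDR region, while the share of all genes fell to 19.6% and 11.7%, so that 1 of 6 is close to the first share and above the second. For the X, which carries the 4 achaete-scute genes, the share was 40.4% of genes. In the pooled list 5 of the 6 genes had a region of any rank, against 86.8% of all genes, and da had none. In the replicate lists the numbers were 5, 5 and 6 genes for replicates 1, 2 and 3, against 90.9%, 89.9% and 92.3% of all genes. Restricted to the 3319 highest regions of each replicate, 2, 1 and 1 of the 6 genes had a region, against 46.1%, 41.9% and 43.5% of all genes. Those were emc in each replicate and da in replicate 1. With 6 genes, 4 of them neighbours on the X, these counts describe the loci and were not tested against other genes.

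**Figure D1:**
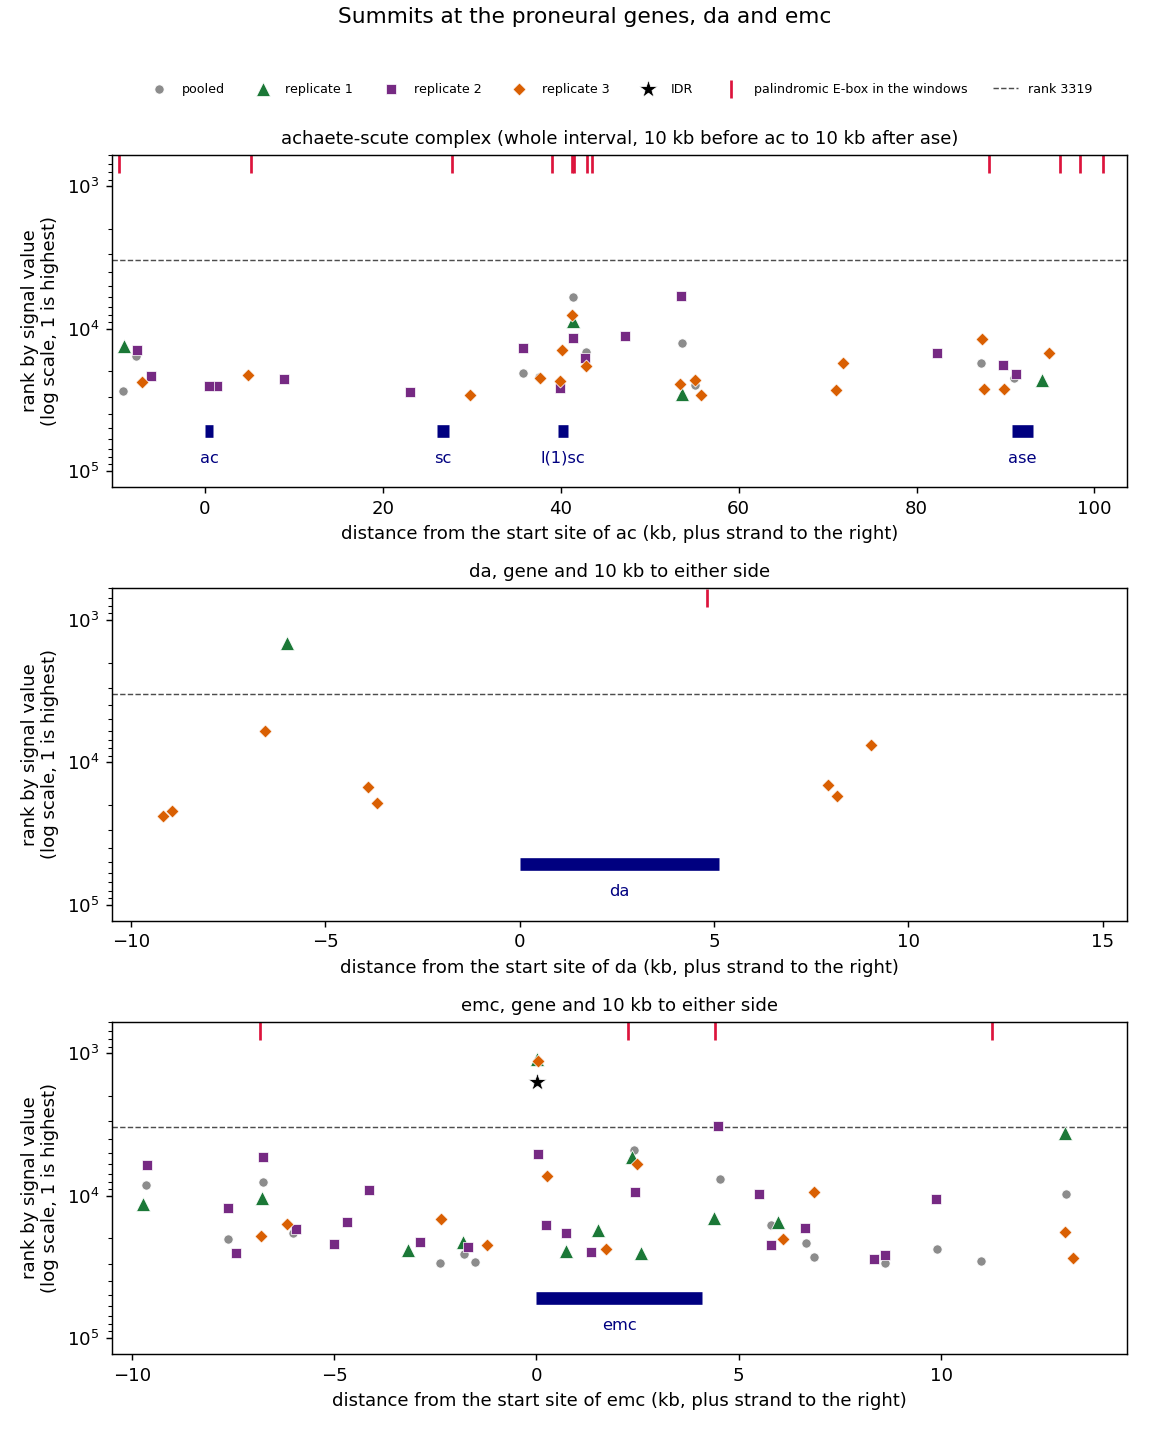
Summits at the achaete-scute complex, da and emc. The x axis gives the distance in kb from the start site of ac, da or emc, the y axis the rank within the list on a log scale with the highest regions at the top, the symbols the list, blue bars the genes, red ticks the CACGTG sites of the windows, and the dashed line rank 3319. The star at the emc start site, rank 1604, is the single IDR region, and all summits of the achaete-scute complex lie below the line.

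On average, the high end of the replicate lists gave the 6 genes no more regions than the low end. The 3319 highest regions of replicates 1, 2 and 3 placed 2, 1 and 1 summits in the windows, and the 3319 lowest placed 0, 2 and 2. Over the 6 arms, 3319 regions amount to 2.48 per 100 kb. The windows cover 127.32 kb, so every count at either end was below that level. The mean was 1.33 ± 0.577 (SD, n = 3) for the highest and 1.33 ± 1.15 for the lowest (exact permutation test, two-sided, unpaired, p = 1; 3 values against 3 cannot go below p = 0.1). Replicate 1 was the replicate with more high than low regions, and its second high region was the one at da.

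The 4 achaete-scute genes encode the tissue-specific bHLH partners of Da. The genes ac and sc pattern the sensory organs, l(1)sc is the main proneural gene of the embryonic nerve cord, and ase is expressed in the precursors themselves after they are chosen. All lie on the plus strand of the X, ac (FBgn0000022) at X:370031-370947, sc (FBgn0004170) at X:396060-397497, l(1)sc (FBgn0002561) at X:409721-410817 and ase (FBgn0000137) at X:460747-463176. The annotation places all of them inside an intron of CG32816, a gene of the opposite strand, so that sequence between them is intronic by annotation.

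No IDR summit lay in the windows of these genes, nor anywhere in the 113.1 kb from 10 kb before ac to 10 kb after ase. The nearest IDR summit, at X:493976, lay 30.8 kb beyond ase, had rank 299 and was 481 bp from a start site of CG17896. It was also the first IDR summit of the arm, so that the first 494 kb of X held no IDR summit and 26 pooled ones. In consecutive bins of 113.1 kb over the 6 arms the median was 2 IDR summits and 25 pooled summits. A bin with no IDR summit was not rare, at 28.2% of 1180 bins, and 20.8% of bins held as few pooled summits as the complex, 11, or fewer. On the X as a whole IDR regions lay at 2.02 per 100 kb, against 2.48 over the 6 arms, and pooled regions at 19.6 against 22.4. The part of the arm in the result was not tested.

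The windows of the 4 genes held 9 pooled regions in 78.1 kb, or 11.5 per 100 kb, and 3.84, 17.9 and 15.4 regions per 100 kb in replicates 1, 2 and 3. The mean over replicates was 12.4 ± 7.50 per 100 kb (SD, n = 3), and by construction each replicate list had 22.4 per 100 kb over the 6 arms. Every replicate lay below that level, replicate 1 furthest. Set against the density of the X in the same list, replicates 1 and 3 again lay below, but replicate 2 lay slightly above. The lower density was therefore not seen in every replicate when the genes' own arm was the reference. Of the regions in these windows, 1 of 9 in the pooled list and 2, 0 and 1 of 3, 14 and 12 in replicates 1, 2 and 3 had a q-value under 0.05. Over all regions, 32.0% of the pooled list and 51.0%, 14.7% and 26.9% of the replicate lists did so. The windows were above that share in replicate 1, with 3 regions, and below it in the other lists. These small counts were not tested.

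At ac the regions were few and none was among the highest. The pooled list held 2, replicate 1 held 1, replicate 2 held 5 and replicate 3 held 2. The highest pooled one, rank 15527 (q = 0.198), had its summit at X:362328, 7703 bp upstream of ac and 71 bp from the start site of the non-coding RNA gene yar, which lies between yellow and ac. Replicate 2 listed the same place at rank 14250 and the other replicates did not list it. Over all genes, 77.1% had a pooled region of that rank or higher. The replicate 1 region was at X:360964, at rank 13245 with a q-value of 0.0259, and the other replicates had no summit within 100 bp of it. The summit nearest to the ac start site was from replicate 2, 488 bp downstream in the coding exon, at rank 25320 (q = 0.536).

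The class C site upstream of ac had no summit beside it. The nearest pooled summit was 7402 bp away, and the nearest summits of replicates 1, 2 and 3 were 8766, 789 and 5149 bp away. The ac and ase sites share the 11 bases GGCACGCGACA, the core and 5 bases around it. At ase the nearest pooled summit was 248 bp from the site, at rank 22379, and the nearest of replicates 1, 2 and 3 were 3294, 416 and 943 bp away. A further CACGCG of each of l(1)sc and ase lies in the coding exon, at X:410078-410083 and X:461466-461471, within 17 bases that both genes share, and neither was within 100 bp of a summit of any list.

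For sc the lists were emptiest among the achaete-scute genes. The pooled list held 1 summit, at X:405775, which is 9715 bp downstream of the sc start site and lies also in the l(1)sc window, 3946 bp upstream of that gene. Its rank was 20460 (q = 0.350). Replicate 1 held none, replicate 2 held 2 and replicate 3 held 1 at rank 29237. The sc window had 8 CACGCG sites, 3.73 per 10 kb against 1.98 over the 6 arms, and 1 CACGTG site. The CACGCG sites that start at X:400018, X:401407, X:402241 and X:403183 lie also in the l(1)sc window.

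The gene l(1)sc had the highest summit of the complex windows and the 1 place there that all replicates listed. Its pooled summit at X:411372, in a region at X:411170-411573, lay 1651 bp downstream of the start site, beyond the end of the gene. The pooled rank was 5996 with a signal value of 77.4 and a q-value of 0.00592. Replicate 1 ranked the same place 8836 (q = 0.00209), replicate 2 ranked it 11608 (q = 0.273) and replicate 3 ranked it 8035 (q = 0.0484). All 3 replicates thus listed it at ranks between 8035 and 11608 of 30000, outside their 3319 highest regions, and the replicate summits lay 36, 9 and 36 bp from the pooled one. Replicate 2 had a region slightly higher in its own list, rank 11355 at X:417279, which the others did not list.

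The CACGTG shown for l(1)sc was 24 bp from that pooled summit, and 60, 33 and 12 bp from the summits of replicates 1, 2 and 3. It was the sole CACGTG or CACGCG of the achaete-scute windows with a summit of any list within 100 bp. A second CACGTG at X:411570-411575 was 200 bp from the pooled summit. Of the lower l(1)sc regions, the pooled summits at X:412852, X:407632 and X:409931 had ranks 14693, 22013 and 25300. The last lay in the coding exon, 210 bp from the start site, with matches in replicates 2 (rank 26064) and 3 (rank 23298) and none in replicate 1. In the pooled list 57.7% of all genes had a region as high as that of l(1)sc.

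At ase the pooled list had 2 regions, 3505 bp upstream (rank 17393, q = 0.256) and 289 bp downstream of the start site in the coding exon (rank 22379, q = 0.403). Neither had a summit within 100 bp in any replicate. By interval, the first overlapped a replicate 3 region (rank 11869) and the second a replicate 2 region (rank 20887). Replicate 1 listed 1 region, replicate 2 listed 3 and replicate 3 listed 4, with best ranks of 23075, 14753 and 11869. The best rank was thus at a different place in each replicate. Replicates 2 and 3 shared a summit 976 and 902 bp upstream, at ranks 18048 and 26580.

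Between the windows of l(1)sc and ase, in the interval that the 10 kb rule leaves out, replicate 2 ranked a summit at X:423561 as 5868 (q = 0.0976), its highest of the whole complex. The pooled list had it at rank 12616. Each replicate had a summit there with a CACGCG within 100 bp, at ranks 28809, 5868 and 24478 in replicates 1, 2 and 3. The summits of replicates 1 and 3 lay more than 100 bp from that of replicate 2. The spans searched in replicates 1 and 3 did not overlap, so no single CACGCG was shared by all replicates. Within 100 bp of the pooled summit, X:423611, no CACGCG was found. The interval was added after the values were seen.

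**Figure D2:**
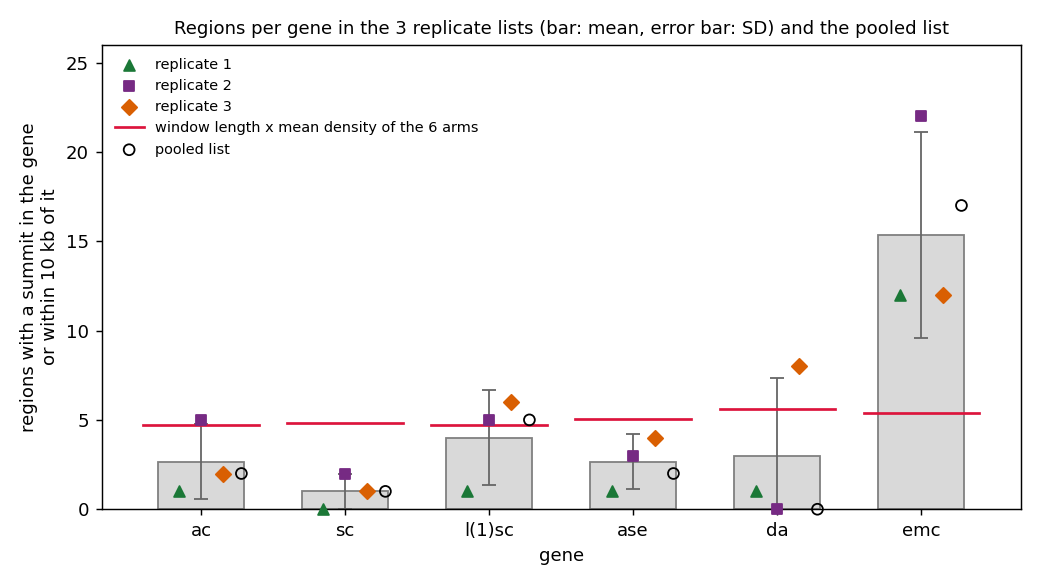
Regions with a summit in each gene or within 10 kb of it. Bars give the mean and error bars the SD of the 3 replicate lists, coloured symbols each replicate, open circles the pooled list and red lines the number that the window length would hold at the mean density of the 6 arms. For emc all replicates (12, 22 and 12) stand above the line at 5.40, and for sc all (0, 2 and 1) stand below the line at 4.80.

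The gene da (FBgn0267821, 2L:10388105-10393228, plus strand) encodes the common dimer partner of the proneural proteins. It had no IDR and no pooled region, and no summit of any list fell inside the gene. From a CACGTG in its 3' UTR the nearest pooled summit was 75670 bp away. The stretch without pooled summits was thus much wider than the window, and their absence is not particular to da. The nearest summits of replicates 1, 2 and 3 were 10810, 41450 and 3122 bp from that site. Replicate 1 had 1 region in the window, replicate 2 had none and replicate 3 had 8, where the window length would hold 5.63 at the mean density. The mean was 3 ± 4.36 regions (SD, n = 3), and da was the one gene of the 6 at which the SD was larger than the mean.

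The replicate 1 region at da was high, rank 1465 with a signal value of 75.9. Its q-value, 7.29e-05, was also that of replicate 1 regions at emc with ranks 1096, 3633 and 5331, so it does not order them. By rank, 27.3% of all genes had a replicate 1 region as high. The da region had its summit at 2L:10382114, 5991 bp upstream of da. That summit lay in the 3' UTR of gny, 149 bp from a start site of CG5096. No pooled summit and no summit of replicate 2 or 3 lay within 100 bp. The replicate 1 region was 141 bp wide, while most regions of that list had 360 bp and 3.76% were narrower. The highest replicate 3 region at da, rank 6032 (q = 0.0155), was at 2L:10381562, and its next, rank 7640 (q = 0.0410), at 2L:10397136, 43 bp from a start site of Cnot4. Neither core was found within 100 bp of any of the 9 replicate summits at da. The window held 1 CACGTG, at 2L:10392922-10392927 in the 3' UTR, and no CACGCG. The IDR summits nearest to da lay 187.1 kb to the left, 25 bp from a start site of RpL7, and 81.3 kb to the right.

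The gene emc (FBgn0000575, 3L:749400-753492, plus strand) encodes the inhibitor of the set and was the gene with regions in every list. It lies within an intron of hng3 on the opposite strand, and most of the regions named here lie in that intron too. The pooled list held 17 regions, a number that 4.53% of all genes reached, against a median of 4 over all genes. Of these 17 summits, 5 had the start site of emc as their nearest, 8 had one of hng3 and 4 had one of a tRNA gene, so the count is of the window and not of emc alone. Replicates 1, 2 and 3 held 12, 22 and 12. Per 100 kb these were 49.8, 91.3 and 49.8. The mean density was 63.6 ± 24.0 per 100 kb at emc and 12.4 ± 7.50 at the achaete-scute genes (SD, n = 3). Within replicates 1, 2 and 3 the density at emc was higher by 46.0, 73.4 and 34.4 per 100 kb. These values are set side by side because they were seen to differ, and no test was made. Of the emc regions, 5 of 17 in the pooled list had a q-value under 0.05, and 6 of 12, 1 of 22 and 3 of 12 did so in replicates 1, 2 and 3. Over all regions, 32.0% of the pooled list and 51.0%, 14.7% and 26.9% of the replicate lists did so. The emc regions were above that share in no list.

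The single IDR region of the 6 genes was at the emc promoter, at 3L:749217-749620, with a summit at 749419, 19 bp downstream of the start site in the 5' UTR. Its signal value was 176.5, in a list running from 115.1 to 1914.2, its rank 1604 of 3319 and its −log10 q-value 3.86. Replicate 1 ranked it 1096 (q = 7.29e-05), replicate 3 ranked it 1138 (q = 0.00025) and replicate 2 ranked it 5067 (q = 0.0721), with summits 6, 22 and 25 bp from the pooled one. Replicates 1 and 3 therefore had it among their 3319 highest regions and replicate 2 did not, so that it was not found at that level in all 3 replicates, as 36.5% of all IDR regions were. Over all genes 28.3% had a pooled region as high.

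Neither the palindromic E-box nor the class C site lay within 100 bp of that summit on either strand. The E-boxes CAGCTG and CAGGTG were missing there, as was any other E-box of the form CANNTG. Neither CACNAG (the N-box type) nor TGGGAA (the type bound by Su(H), the Notch effector) was found. Of all IDR regions, 29.9% had a palindromic E-box or class C site in that span, and 12.6% of the other pooled regions did. For the remaining motifs the shares of IDR regions were 9.82% for CAGCTG, 26.8% for CACNAG and 11.6% for TGGGAA. The 100 bases before the start site, 3L:749300-749399, which the region covers, are shown with a TATAAAA in capitals, 27 bp upstream. That motif, on either strand, stood in the 100 bases upstream of 8.39% of all start sites, and a match is a description and not evidence of use.

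emc upstream: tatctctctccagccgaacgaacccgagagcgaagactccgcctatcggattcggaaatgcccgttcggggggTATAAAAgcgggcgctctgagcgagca

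A second summit stood close to the first in 2 replicates. Replicate 3 had one 250 bp downstream of the start site (rank 7291, q = 0.0345) and replicate 2 one 246 bp downstream (rank 16031, q = 0.376). Both had a CAGGTG within 100 bp, a type of E-box that proneural and Da dimers bind. The pooled list had no summit there. CAGGTG was within 100 bp of 7.80% of all IDR summits and 7.52% of the other pooled summits. Elsewhere in the emc window, CAGCTG was within 100 bp of the pooled summits at 3L:751820, 3L:753938, 3L:742650, 3L:755189, 3L:743390 and 3L:741782. The rest of the 17 pooled summits of the window lacked it. Its shares were 9.82% of all IDR summits and 10.3% of the other pooled summits. These places were picked after the values were seen, and the difference was not tested.

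Inside the gene, in its intron, all replicates listed a place 2420 bp downstream of the start site, with the pooled summit at 3L:751820 (rank 4752, q = 0.000947). Its ranks were 5331, 9387 and 6023 in replicates 1, 2 and 3. A CACGTG at 3L:751656-751661 was 162 bp from the pooled summit and more than 100 bp from that of each replicate, up to 230 bp in replicate 3.

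Upstream of emc, in the hng3 intron, the summit at 3L:742650, 6750 bp from the emc start site and 1144 bp from that of tRNA:iMet-CAT-1-3, was listed by all replicates at ranks 10322, 5362 and 19177 (pooled rank 7974, q = 0.0260). The CACGTG shown for this place was 85 bp from the pooled summit and 51, 72 and 25 bp from those of replicates 1, 2 and 3. Further upstream a summit at 3L:739760 (pooled rank 8489), 411 bp from a start site of hng3, was listed at rank 11482 in replicate 1 and 6120 in replicate 2, and not in replicate 3. The replicate orders differed between these places: replicate 2 was lowest at the promoter and in the intron and highest at 3L:742650.

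Downstream of the gene, replicate 2 had its highest region of the window, rank 3267, just inside its 3319 highest, at 3L:753899 (q = 0.0204, pooled rank 7637), 1590 bp from another start site of hng3. The CACGTG shown as emc +4418 was 81 bp from that summit and 34 bp from a replicate 1 summit of rank 14351, while the pooled summit was 120 bp away. The nearest replicate 3 summit was 1687 bp away. Replicate 1 had its second highest region of the window just outside its 3319 highest, rank 3633 at 3L:762472 (pooled rank 9692), 6983 bp from a start site of hng3, listed by replicate 3 at rank 17910 and not by replicate 2.

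One IDR summit lay just outside the 10 kb limit of emc. It was at 3L:738955, 10445 bp from the gene and 394 bp from a start site of hng3, with rank 2681 and ranks 17465, 1706 and 2405 in replicates 1, 2 and 3. It had none of the 6 motifs within 100 bp. Replicate 1 thus ranked it low and replicate 2 high, the reverse of the emc promoter.

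**Figure D3:**
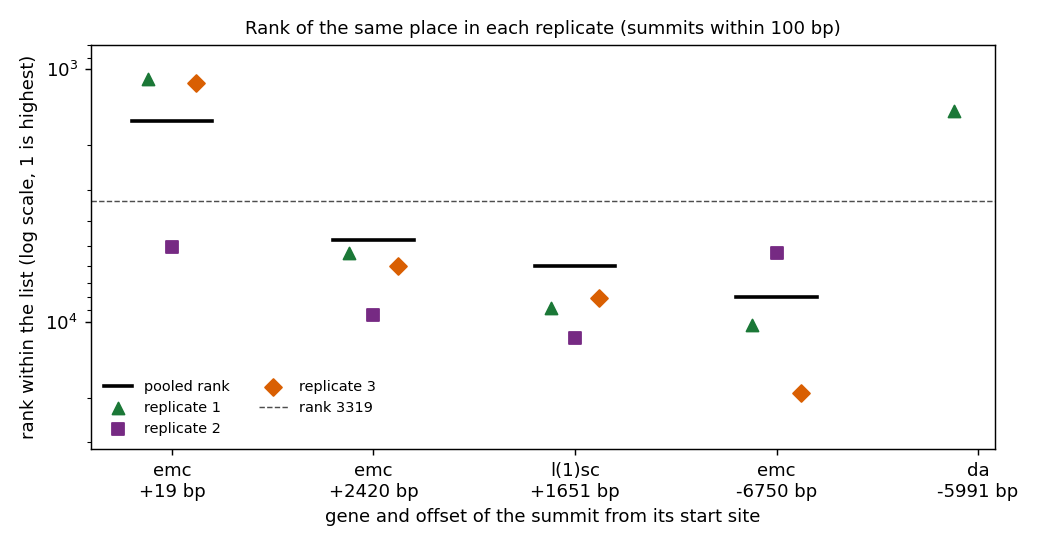
Rank, on a log scale with the highest at the top, of the 4 pooled summits at the 6 genes that had a summit of every replicate within 100 bp, and of the replicate 1 summit at da. Coloured symbols are replicates, black bars the pooled rank and the dashed line rank 3319. The emc promoter (+19 bp) is above the line in replicates 1 and 3 and below it in replicate 2, and the da summit has a value in replicate 1 alone.

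Among the 26 pooled summits, 4 had a summit of all 3 replicates within 100 bp, 4 of 2 replicates, 13 of 1 and 5 of none. The 4 were 3 at emc and 1 at l(1)sc. Over all pooled regions 17.9% had a summit of all 3 and 12.2% of none. The members' count with all 3 was close to the general level, and their count with none somewhat above it. Of the 9 pooled summits at the achaete-scute genes, 1 had all 3 and 3 had none. Of the 17 at emc, 3 had all 3 and 2 had none. These small counts were not tested. Of the same 26, 2 had a CACGTG and 0 a CACGCG within 100 bp of the summit, the 2 being the l(1)sc and the upstream emc summits listed by all replicates. Of the pooled regions ranked below 3319, 5.68% had a CACGTG and 7.32% a CACGCG in that span. For so few summits, the counts of 2 and 0 are close to these shares.

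The windows were not short of sites. They held 17 distinct CACGTG and 26 distinct CACGCG cores, sites in overlapping windows counted once. Per 10 kb, CACGTG ran from 0.398 at da to 2.37 at l(1)sc, around the 1.23 of the 6 arms, and CACGCG from 0 at da to 3.73 at sc, around 1.98. No site lay within 100 bp of an IDR summit. Over the genome, 3.88% of CACGTG and 2.12% of CACGCG sites did, so that a count of 0 is close to the general level for so few sites. Within 100 bp of a pooled summit were 2 of 17 CACGTG sites, against 13.5% of all, and 0 of 26 CACGCG sites, against 10.3% of all. Counting every list, 3 CACGTG sites and 0 CACGCG sites had a summit that close. The CACGCG nearest to a pooled summit was at emc, 121 bp away.

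**Figure D4:**
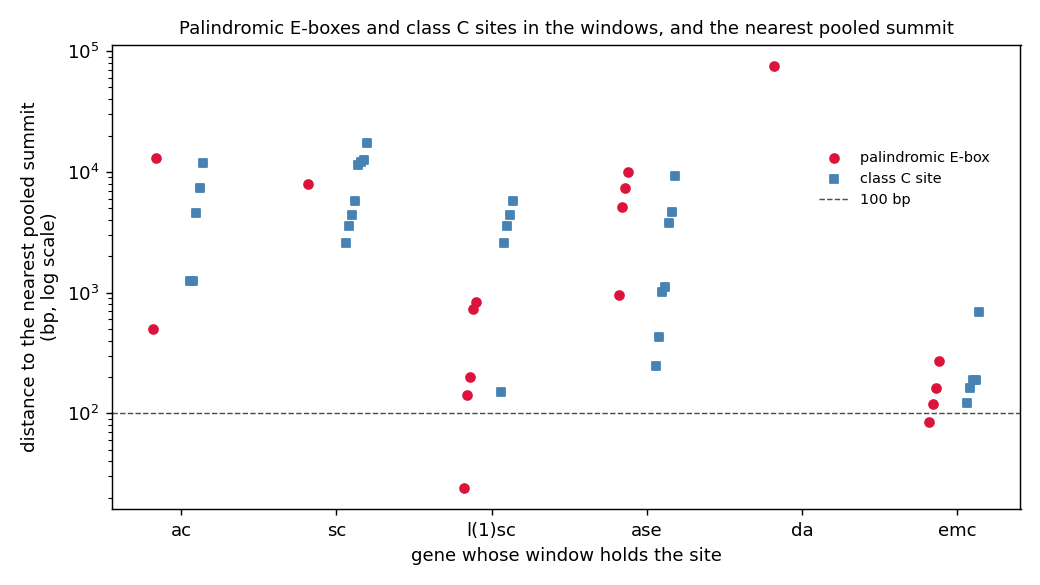
Distance in bp, on a log scale, from each CACGTG (red circles) and CACGCG (blue squares) of the windows to the nearest pooled summit, by gene. The dashed line marks 100 bp. Of all these sites, 1 at l(1)sc (24 bp) and 1 at emc (85 bp) lie below the line, both CACGTG.

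Beyond the 6 genes, those that act around the proneural set were counted with the same 10 kb rule. Of 11 genes that regulate or pattern the achaete-scute complex, 7 had an IDR region (63.6%, median 2 regions per gene, against a median of 0 over all genes). The highest were at gro, the corepressor gene next to the Enhancer of split genes (signal 1352.0, at 9545 bp from its start site), at ush, whose product restrains the activator Pannier (1111.7), and at vnd, which acts upstream of l(1)sc in the nerve cord (1063.2). The Iroquois genes ara and caup, which activate ac and sc in the wing disc, had none, and neither had Chi or ind. Of 13 genes downstream of the proneural proteins, 9 had one (69.2%, median 1), the highest being neur (747.5), chn (309.6) and Delta (265.7), and sens, phyl, esg and mira had none. Of 17 other tissue-specific bHLH genes, 11 had one (64.7%, median 1), with tap (1914.2), Fer2 (589.9) and nau (504.2) the highest and ato, cato, twi, sage, Hand and Fer3 without one. These shares stand beside 43.3% of all genes and 1 of the 6 genes described here. The lists were written with earlier results of these data known, so their shares are not independent of the data. Gene lengths differ between these lists and longer genes have longer windows, whose part was not tested.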

How the data were processed

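Hey-GFP ChIP-seq was done on 3 biological replicates of whole embryos, per the labels. Per the listings deposited beside the files, regions of each replicate were called against a control alignment on dm6, the pooled list from all 3 alignments, and the IDR list from these 4. For caller, aligner, IDR cutoff and depth, nothing is given in the sources used here. All lists are narrowPeak files: the authors' signal value ranks regions within a list, the deposited −log10 q-value was turned into q, and the summit is a deposited offset. Fold enrichment and read counts were not used.

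Genes were those of Ensembl release 115 without transposable elements, and sequence that of the release 6 assembly from RefSeq. Start and end of all 6 members were the same in both annotations. A region was found in a replicate when a summit lay within 100 bp, by default among the 3319 highest regions. Motifs were searched on both strands within 100 bp of summits, and CACGTG and CACGCG in whole windows. Of the symbols listed, Dl and h were matched as Delta and hry. The named genes were the 6 members, every IDR region in their windows, the highest pooled and replicate region of a member without one, genes with the start site nearest to these, and the 3 of each list with the highest signal. Genes of a list without a region, the further places described at the members, the bins, the interval between windows, the shared bases and TATAAAA were chosen after their values were seen. The test of high against low regions was an exact permutation test over replicates, unpaired, with pairing as an alternative (scipy 1.17.1). The computations were tested on simulated data. The members and lists were chosen with earlier results of these data known. Intervals of counting error were not computed, since no read counts are in the lists.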

Additional observations from a re-analysis of the deposited data

How the results depend on the processing

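The count of 1 IDR region, and of 1 gene of 6 with one, was the same with limits of 5 kb and 2 kb, in the upper part of the IDR list by rank (the emc promoter, rank 1604, is just inside it), with repeated intervals counted once, with each region assigned to its nearest start site alone, and with the whole achaete-scute complex taken as 1 interval, an alternative added after the data were seen. When each replicate was left out in turn and a match among the highest regions of both others was required, both counts ranged from 0 to 1: they were 1 without replicate 2 and 0 without replicate 1 or 3, since replicate 2 ranked the emc promoter at 5067. The number of IDR regions found in all 3 replicates was 0 and became 1 when all regions of a replicate were allowed as matches. It stayed 0 with a reciprocal overlap of 50% or an overlap of 1 bp. The share of all genes with an IDR region, 43.3%, became 19.6% at 2 kb and 11.7% with the nearest start site only. The members' 1 of 6 is close to the first of these and above the second. The emc region had no CACGTG or CACGCG within 50, 100 or 200 bp of its summit or in its whole length. The difference between high and low regions was 0.667 with fewer regions at each end (exact permutation test, p = 0.7) and between -1 and 0.5 without 1 replicate. Of 92 alternatives, 82 kept their value within the limits set and 10 did not. With the replicate block, pairing the high and low regions of the same replicate (an alternative chosen after seeing the data), their mean difference was 0 and the exact permutation test, two-sided, gave p = 1, where 3 pairs cannot go below 0.25. Depth is unknown, so an absence from a list says nothing about how weak a signal the libraries could have shown.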
